A study of Mus musculus with 14 samples.

Results

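The genes examined here encode the ATP-driven chromatin remodellers of mouse blood stem cells and the bromodomain and ARID proteins that work with them. They were chosen by symbol: protein-coding autosomal genes of the RefSeq annotation (GRCm38.p6, the assembly called mm10) whose symbols start with Smarc or Ino80, or have Chd, Brd or Arid followed by a digit, without Arid5a. This gave 45 genes of 20661 protein-coding autosomal genes, and the 181 peaks, of 57289 in all, that overlapped their spans or lay within 1 kb of their ends. All 45 genes had at least 1 peak, with a median of 2 and a maximum of 33 at Arid1b, and no peak was shared between members. The symbol rule also took Brd3os and Brd8dc, which are listed apart because their symbols alone brought them in. The members were not chosen on their measured values.

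The data are bulk ATAC-seq, in which the transposase Tn5 cuts and tags open chromatin, from long-term haematopoietic stem cells (LT-HSCs) of C57BL/6 mouse bone marrow, sorted as Lin- Sca1+ cKit+ CD34- Flt3-. The 3 groups were young cells (10 to 16 weeks, n = 4), aged cells (over 80 weeks, n = 5) and aged cells given Rhosin (n = 5). The labels shorten Rhosin, an inhibitor of the GTPase RhoA, to Ri, and its dose was 100 µM. Every sample, controls included, was held for 16 h in culture at 3% oxygen, so the young and aged groups are also cultured cells. The replicates are biological per the series text, but how many mice each one pools is not given in the sources used here.

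Remodellers use ATP to slide, evict or exchange nucleosomes. The SWI/SNF (BAF) complexes open chromatin around a Smarca4 (BRG1) or Smarca2 (BRM) motor. ISWI complexes, with the Smarca5 (SNF2H) motor, space nucleosomes, CHD proteins include the motors of the NuRD complex, and INO80 exchanges histone variants. BET proteins such as Brd2 and Brd3 read acetylated histones, and ARID subunits contact DNA. Smarca4, Smarca5, Chd4 and the BET proteins are known for roles in blood stem cell maintenance and differentiation. ATAC-seq reads the accessibility of these genes' own DNA, not the amount or activity of the proteins. A change in bulk signal can come from a change in cell composition or from a change within cells, and these data cannot tell them apart.

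The total count per library was lowest in young 3 (765533) and highest in aged Ri 3 (3176246), in 3 sequencing batches that each held all 3 groups. The share of all counts lying at protein-coding start sites was 48.1 to 52.4% in young, 39.3 to 51.2% in aged and 36.2 to 48.1% in aged Ri libraries, and 5 of the 10 aged and aged Ri libraries fell under 42%. Of the stem cell markers checked, 7 of 8 had a start-site peak (Slamf1 had none), against 0 of 4 markers from outside blood. Of 4 B cell markers, Cd79a and Ebf1 had a start-site peak, and the summed signal of these was 20.8 to 99.9 CPM (counts scaled to the library size) in young, 15.4 to 34.2 in aged and 27.6 to 40.0 in aged Ri libraries. Young 1 (44.0 CPM) and young 3 (22.7 CPM) had the most signal at Cd79a, a B cell receptor subunit, against 0.65 to 8.90 CPM in the other 12 libraries. All 4 megakaryocyte markers had a start-site peak, with a summed signal of 89.7 to 175.9 CPM in young, 160.4 to 230.5 in aged and 130.2 to 215.4 in aged Ri libraries. Of T and NK cell, myeloid, erythroid, and endothelial and stromal markers, 1, 2, 2 and 2 of 4 had one.

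Start sites were open in nearly all members. A peak lay within 1 kb of the start of 42 of the 45 genes (93.3%), against 62.9% of all protein-coding autosomal genes. The exceptions were Chd3, Chd5 and Smarcd2, whose peaks were placed elsewhere in the gene. The annotation gives a start and strand for 30 of the 42, and for the other 12 the gene end with more counts was used. Member promoters were rich in CpG: a median of 26.5 CpG in the window from 250 bases before to 50 after the start over the 30 members with a placed start (range 7 to 48), against 7.0 over all 32851 promoters of the RefSeq table. Both strands of these windows were searched for short motifs, of which the GC box (GGGCGG) was in 25 of 30 member promoters (83.3%) against 35.7% of all. The ETS core CCGGAAG was in 6 (20%) against 8.86%, the NRF1 motif in 3 (10.0%) against 4.60%, and the YY1 motif AAGATGGC in 3 (10.0%) against 2.75%. CCAAT was in 8 (26.7%) against 37.4%, TATAAA in 1 (Arid5b) against 13.6%, the AP-1 motif TGANTCA in 2 against 7.81%, and the CRE motif TGACGTCA in none against 1.79%. The member windows were taken only at starts with a peak, and at the start with the most counts where a gene has several. The 32851 promoters were taken whether open or not. No background of open promoters was counted, so these differences cannot be read as particular to the members. The motif counts are matches of letters in a window, not sites shown to be bound.

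The upstream 250 bases are shown for 4 start sites that passed the test against young cells and for 2 of the most open ones (Arid4b and Smarca5), from RefSeq on GRCm38.p6, 5′ to 3′ on the gene's strand, with matches to the motifs above in capitals. They are Smarcd1 (chr15:99702037-99702286, plus strand), Smarcc2 (chr10:128458986-128459235, plus strand), Brd9 (chr13:73937561-73937810, plus strand), Chd9 (chr8:90828585-90828834, plus strand), Arid4b (chr13:14063534-14063783, plus strand) and Smarca5 (chr8:80739460-80739709, minus strand).
Smarcd1: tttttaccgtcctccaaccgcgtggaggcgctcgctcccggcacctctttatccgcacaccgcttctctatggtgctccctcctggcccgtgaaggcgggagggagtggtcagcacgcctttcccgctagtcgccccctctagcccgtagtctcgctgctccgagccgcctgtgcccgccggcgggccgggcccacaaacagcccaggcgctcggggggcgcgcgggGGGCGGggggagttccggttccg
Smarcc2: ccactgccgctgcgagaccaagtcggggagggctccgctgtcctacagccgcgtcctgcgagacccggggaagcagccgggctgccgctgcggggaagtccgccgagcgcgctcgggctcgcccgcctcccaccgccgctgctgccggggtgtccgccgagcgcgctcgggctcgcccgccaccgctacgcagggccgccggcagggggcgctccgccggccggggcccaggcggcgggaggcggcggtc
Brd9: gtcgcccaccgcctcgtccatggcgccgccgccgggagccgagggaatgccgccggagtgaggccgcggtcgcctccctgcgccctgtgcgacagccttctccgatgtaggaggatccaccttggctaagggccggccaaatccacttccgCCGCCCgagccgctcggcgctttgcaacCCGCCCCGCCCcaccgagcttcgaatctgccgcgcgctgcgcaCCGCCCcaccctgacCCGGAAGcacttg
Chd9: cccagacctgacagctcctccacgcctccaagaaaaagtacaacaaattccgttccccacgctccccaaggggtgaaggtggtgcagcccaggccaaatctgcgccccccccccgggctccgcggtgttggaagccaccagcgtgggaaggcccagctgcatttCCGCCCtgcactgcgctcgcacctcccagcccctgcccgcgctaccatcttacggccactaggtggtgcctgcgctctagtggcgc
Arid4b: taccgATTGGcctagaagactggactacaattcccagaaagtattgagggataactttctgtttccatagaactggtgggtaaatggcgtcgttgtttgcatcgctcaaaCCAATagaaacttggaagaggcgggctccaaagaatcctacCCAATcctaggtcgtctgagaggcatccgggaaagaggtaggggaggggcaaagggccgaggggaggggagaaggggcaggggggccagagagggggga
Smarca5: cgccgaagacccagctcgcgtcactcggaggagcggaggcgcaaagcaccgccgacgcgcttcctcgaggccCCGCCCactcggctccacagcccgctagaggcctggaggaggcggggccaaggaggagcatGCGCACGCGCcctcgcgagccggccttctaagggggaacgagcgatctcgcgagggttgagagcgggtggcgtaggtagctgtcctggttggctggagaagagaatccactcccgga
The Brd9 stretch held an ETS core 13 bases before the start and 4 GC box matches, 2 of them overlapping, and Smarcd1 held a GC box 23 bases before its start. Arid4b held 3 CCAAT matches and no GC box, and Smarca5 held a GC box and the NRF1 motif. Smarcc2 held none of these letters in its 250 bases, although it held 40 CpG against 8 in Arid4b. The window searched for the counts also takes 50 bases after the start, which are not printed. With these, Smarcc2 is among the 25 promoters with a GC box, and Smarcd1 is among those with the YY1 motif.

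Levels differed widely between members. All peaks are 700 bp long, so start sites were compared in CPM per peak, averaged over the 14 libraries. Arid4a and Arid4b, ARID proteins that bind the retinoblastoma protein, were the most open with 160.1 and 147.1 CPM, at the 99.0th and 98.5th percentiles of all start sites (the end of Ggps1 lies within 1 kb of the Arid4b peak), followed by Chd8 (101.7 CPM), Smarca5 (98.4 CPM) and Chd6 (85.1 CPM). The lowest were Arid5b (9.99 CPM), Arid3c (5.25 CPM) and Brd8dc (4.25 CPM). For Brd8dc and Arid4a the start was placed at the gene end with more counts. The end of Nme5 lies within 1 kb of the Brd8dc peak. Arid4a ran from 128 to 216 CPM in young, 124 to 183 in aged and 104 to 226 in aged Ri libraries, and Arid4b from 122 to 185, 104 to 225 and 82.8 to 178 CPM, so the first 2 ranks do not differ beyond their spread. Chd8 (73.8 to 127 CPM in aged libraries) and Smarca5 (62.1 to 122 CPM) also overlapped throughout. Arid5b (6.42 to 14.2 CPM over all libraries) and Chd8 (62.0 to 127 CPM) did not overlap in any library. The plot of start-site signal by gene and library shows this order within each class of remodeller.

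**Figure D1:**
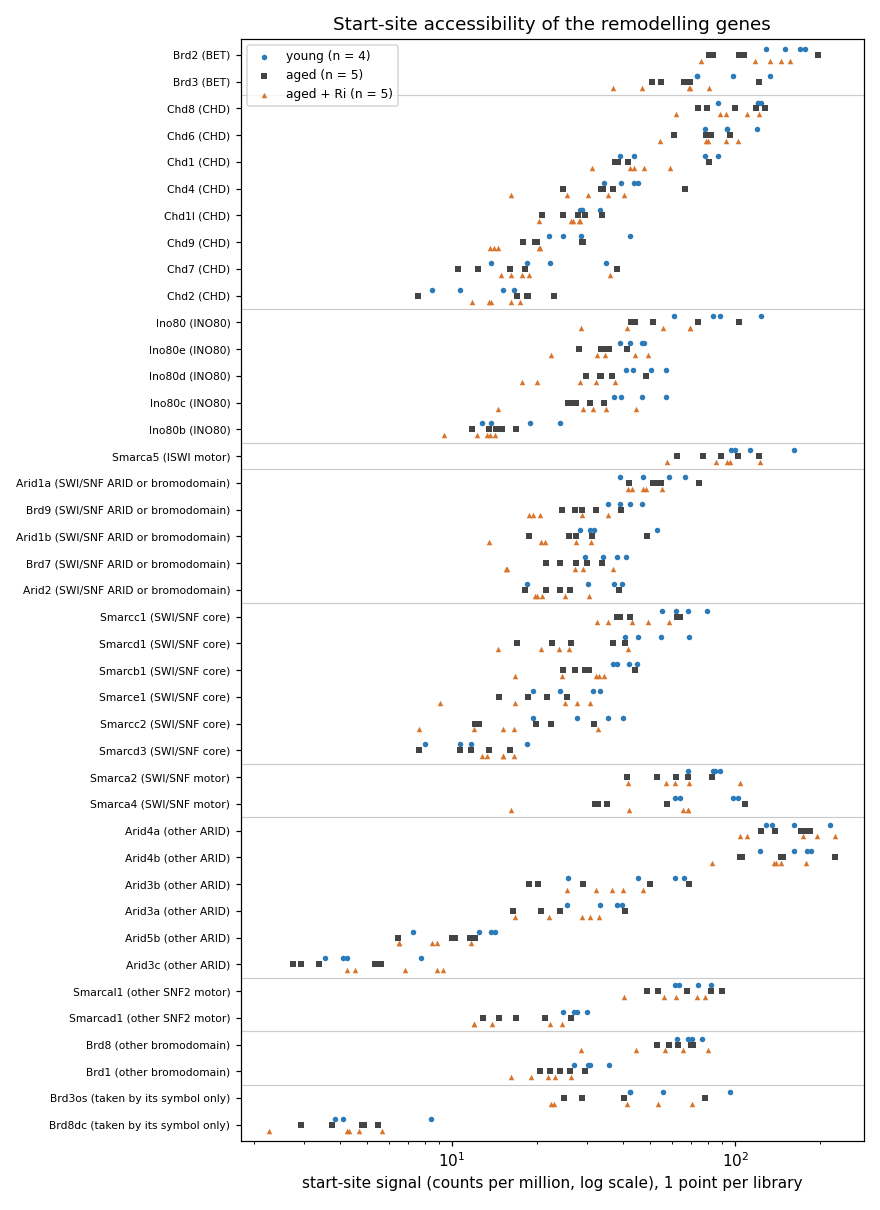
Start-site signal in CPM (log scale) of all but 1 of the 42 members with a start-site peak, 1 point per library, grouped by class. Arid4a and Arid4b lie above 80 CPM in every library, and Arid3c and Brd8dc below 10 CPM; Brd8dc in young 3 is at 0 and cannot be drawn on this axis.

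Not all strong peaks lay at start sites. The 46 start-site peaks had a median of 32.1 CPM (4.25 to 160.1) and the 135 other peaks, 129 inside spans and 6 in the flanks, a median of 9.84 CPM (4.25 to 133.8). The strongest of the latter lay 332.8 kb into Arid1b (chr17:5327532-5328231), with 59.1, 146, 95.1 and 112 CPM in young, 122, 137, 222, 168 and 124 CPM in aged and 121, 144, 191, 125 and 107 CPM in aged Ri libraries. It is the third strongest of all member peaks, was picked out here after its values were seen, and did not pass the test in any comparison (edgeR adjusted p = 0.0824 for aged against young). Chd2 had a peak of 99.2 CPM 3.9 kb inside its start-site end (chr7:73537460-73538159), against 14.8 CPM at that end itself, where the lncRNA gene Chaserr also lies within 1 kb.

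The first comparison was of aged with young cells. Most member start sites were lower in aged cells, by a little, and 1 passed the test: Smarcd1, the BAF60A subunit that links SWI/SNF to transcription factors. Of 42 start sites tested, 38 (90.5%) had a log2 fold change under 0, against 77.9% of all 13399 start sites, with a median of -0.32 against -0.25. Over all start sites 1.38% passed (0.567% higher and 0.813% lower), and 1 of 42 lies close to that share; at an unadjusted p under 0.05 there were 0 higher and 9 lower members, where the background was 25.0%. With library sizes set on start sites alone, which centres start sites near 0 by construction, the median over all of them was -0.01 and that of the members -0.07. The direction of many members depended on the scaling: of 24 named start sites, 7 changed sign with library sizes set on start sites alone (Arid1b, Arid4b, Arid5b, Brd8dc, Chd4, Chd7 and Chd8), and 15 did with the start-site share of each library in the model.

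Smarcd1 (peak chr15:99701970-99702669, over the promoter printed above; the end of Asic1 and the lncRNA gene Gm34939 lie within 1 kb) gave 40.9, 68.7, 45.4 and 54.7 CPM in young libraries. It gave 22.5, 17.0, 26.3, 37.0 and 41.0 CPM in aged ones, with means of 52.4 ± 12.3 (SD, n = 4) and 28.7 ± 10.0 CPM (SD, n = 5). Only aged 5, at 41.0, reached the lowest young value. The fall was 1.77-fold (log2 -0.82 ± 0.22 SE; edgeR adjusted p = 0.0451), and within batches 1, 2 and 3 the difference was -1.03, -0.82 and -0.41 on log2(CPM + 1). The call was lost with any 1 of young 1, 2 or 3 or aged 1, 2, 3 or 4 left out (adjusted p 0.0509 to 0.212) and with the start-site share in the model (log2 -0.31, adjusted p = 0.743). Leaving out aged 5 gave 4 called member start sites.

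By class, the SWI/SNF motors and core subunits had the lowest medians and the CHD genes the one nearest 0. The Smarca4 start site, the BRG1 motor, gave 64.0, 61.2, 98.0 and 102 CPM in young and 32.9, 35.1, 32, 57.5 and 108 CPM in aged libraries, with 4 aged values under every young one and aged 5 above them all (log2 -0.60 ± 0.28 SE; edgeR adjusted p = 0.182; 0.29 with the start-site share in the model). Smarca2, its paralogue, had a log2 change of -0.38 ± 0.22 (SE), which also changed sign in that model. The 6 core start sites tested had a median of -0.47, with Smarcc2 at -0.58, Smarce1 at -0.53, Smarcc1 at -0.41, Smarcb1 at -0.38 and Smarcd3 at 0.09. The 5 ARID and bromodomain subunits of SWI/SNF (Arid1a, Arid1b, Arid2, Brd7, Brd9) had a median of -0.33, and Arid1a alone was above 0 (log2 0.06 ± 0.21 SE). None of these other than Smarcd1 passed the test.

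Of the BET genes, Brd2 had a log2 change of -0.45 ± 0.21 (SE) and Brd3 one of -0.36 ± 0.22 (SE), and neither passed the test; both changed sign with the start-site share in the model. The 8 CHD start sites had a median of -0.17 (Chd8 -0.12, Chd4 -0.05, Chd7 -0.23, Chd1 -0.29), with Chd2 at 0.28, the highest of all 42. The 5 INO80 start sites had a median of -0.35, and Ino80c, at 37.2 to 56.8 CPM in young and 25.7 to 34.3 CPM in aged libraries, was the member start site without overlap (log2 -0.57 ± 0.22 SE; edgeR adjusted p = 0.120), 1 of 42 where the background of start sites lower without overlap was 3.97%. Smarca5 (ISWI) had a log2 change of -0.32 ± 0.21 (SE). The 6 other ARID genes had a median of -0.21, with Arid4a at 0.04, Arid4b at -0.11 and Arid5b at -0.16.

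Chd3, a NuRD motor, has no start-site peak under the rule used. Its stronger peak (chr11:69366380-69367079) gave 75.5, 88.0, 78.1 and 80.8 CPM in young and 33.7, 43.4, 45.1, 56.8 and 82.8 CPM in aged libraries, with aged 5 inside the young range and the other 4 under it (log2 -0.61; edgeR adjusted p = 0.141). The same 4 libraries were low at Chd3 and Smarca4, and aged 5 has the highest start-site share of the aged libraries (51.2% against 39.3 to 45.0%); the part of that share in these values was not tested beyond the scalings given.

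Away from start sites the direction was mixed, and the calls lay inside Arid1b and Arid5b and beside Smarcd3. The 134 such member peaks tested had a median log2 change of 0.12, against 0.09 over all 43017 peaks away from start sites. Over all peaks 5.72% were called (4.45% higher and 1.26% lower), and of 180 member peaks tested 3 were called higher and 2 lower. At an unadjusted p under 0.05 there were 17 higher and 16 lower, in all 33 of 180 where the background was 22.3%. The share of members called was thus below that of all peaks, and no test of that difference was run.

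Arid5b, an ARID protein that recruits a histone demethylase, had the clearest gain, 118.7 kb into the gene (chr10:68159726-68160425), where the lncRNA gene Gm51770 is also annotated. The peak gave 7.11, 8.25, 8.52 and 7.26 CPM in young and 24.9, 15.2, 28.2, 18.5 and 12.5 CPM in aged libraries. All 5 aged values lay above all young ones, a 2.47-fold rise (log2 1.31 ± 0.30 SE; edgeR adjusted p = 0.00696). Within batches the difference was 1.34, 1.35 and 0.71 on log2(CPM + 1). The call was lost without young 1 or aged 3 (adjusted p 0.0518 to 0.0713) and with the start-site share in the model. A further Arid5b peak 56.6 kb into the gene (chr10:68221763-68222462) gave 5.33 to 9.19 CPM in young and 9.35 to 19.8 CPM in aged libraries and narrowly missed the threshold (log2 1.02 ± 0.32 SE; edgeR adjusted p = 0.0510). Of the 14 Arid5b peaks, 12 had a change above 0, with a median of 0.35, while its start site had a log2 change of -0.16 ± 0.28 (SE).

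Arid1b, the ARID subunit of canonical BAF that is the alternative to Arid1a, had calls in both directions among the 32 peaks tested of its 33 (median 0.12). The peak 211.8 kb into the gene (chr17:5206538-5207237) gave 2.66, 1.37, 2.84 and 4.84 CPM in young and 8.82, 5.86, 7.14, 6.16 and 9.80 CPM in aged libraries, without overlap. It rose 2.49-fold (log2 1.32 ± 0.40 SE; edgeR adjusted p = 0.0437) on counts of 2 to 10 per young library, and the call was lost without any of 9 single libraries (adjusted p 0.0508 to 0.154). The peak 300.9 kb into the gene (chr17:5295593-5296292) fell 2.04-fold (log2 -1.03 ± 0.31 SE; edgeR adjusted p = 0.0437), from 46.6, 26.1, 29.8 and 12.6 CPM in young to 8.02, 14.1, 9.02, 21.2 and 16.9 CPM in aged libraries. Young 4 lay inside the aged range, and within batches the difference was -2.03, -0.95 and 0.40, so that batch 3 went the other way. The call was lost without any of 8 single libraries (adjusted p 0.0552 to 0.420, the last without young 1).

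A peak 9.4 kb into Smarca4 (chr9:21625232-21625931) had the largest fall of all member peaks averaging 20 counts or more, and it did not pass the test. It gave 65.7, 13.1, 27.0 and 3.87 CPM in young 1 to 4 and 4.01, 7.03, 2.26, 18.5 and 2.23 CPM in aged 1 to 5 (log2 -2.01 ± 0.90 SE; edgeR adjusted p = 0.226). The Cd79a start site gave 44.0, 6.18, 22.7 and 2.90 CPM in the same young libraries and 2.41, 4.69, 1.13, 8.90 and 6.68 CPM in the same aged ones. Young 1 and young 3 were thus the highest young libraries at both, and aged 4 was the highest aged library at both. The Ebf1 start site, the other B cell marker with a peak, had the same order in young libraries, at 56.0, 25.4, 27.0 and 17.9 CPM. Aged libraries gave 13.6 to 25.3 CPM at Ebf1. Aged 4 (25.32 CPM) was hardly above aged 2 (25.19 CPM) there, and aged 5 was close to both. The first rank of aged 4 at Ebf1 thus does not set it apart from these libraries. Aged Ri libraries differed between the markers. At Ebf1 they gave 20.8 to 37.5 CPM, and 4 of 5 lay above young 2, 3 and 4, while at Cd79a they gave 0.65 to 7.28 CPM. The Arid1b peak that fell was also highest in young 1 and young 3, and a neighbouring Arid1b peak 308.3 kb into the gene (chr17:5303067-5303766) gave 31.1, 8.93, 14.2 and 2.90 CPM in young libraries. That neighbouring peak was picked out after its values were seen, so its order in young libraries is not a separate observation. The part of B cell signal in these peaks was not tested. With young 1 and young 3 both left out, an alternative added after the data were seen, the log2 change was -0.44 at the Smarca4 peak and -0.39 at the Arid1b peak, and neither was called.

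Beyond the 3′ end of Smarcd3, the BAF60C subunit, and over Chpf2, with the miRNA gene Mir671 within 1 kb, the peak at chr5:24591212-24591911 rose 1.92-fold (log2 0.94 ± 0.29 SE; edgeR adjusted p = 0.0495). It gave 4.44, 14.4, 17.0 and 13.5 CPM in young and 19.2, 24, 26.3, 24 and 14.7 CPM in aged libraries. Young 1 was far below the other young libraries, aged 5 lay inside the young range, and the call was lost without any of 10 single libraries (adjusted p 0.0556 to 0.370). A peak inside Chd2 (chr7:73530639-73531338) rose without overlap from 7.99 to 14.2 CPM in young to 15.2 to 22.6 CPM in aged libraries but missed the threshold (log2 0.85 ± 0.27 SE; edgeR adjusted p = 0.0520), as did a peak 41.2 kb into Smarca2 in the other direction (chr19:26645978-26646677; log2 -0.87 ± 0.29 SE; adjusted p = 0.0693). The count of 5 called member peaks became 0 without young 1 or aged 3, 1 without young 2, aged 1 or aged 2, and 3 without young 3, aged Ri 1 or aged Ri 4. It became 8 without aged Ri 3, 11 without aged 5 and 14 without young 4, and it was 3 with DESeq2.

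**Figure D2:**
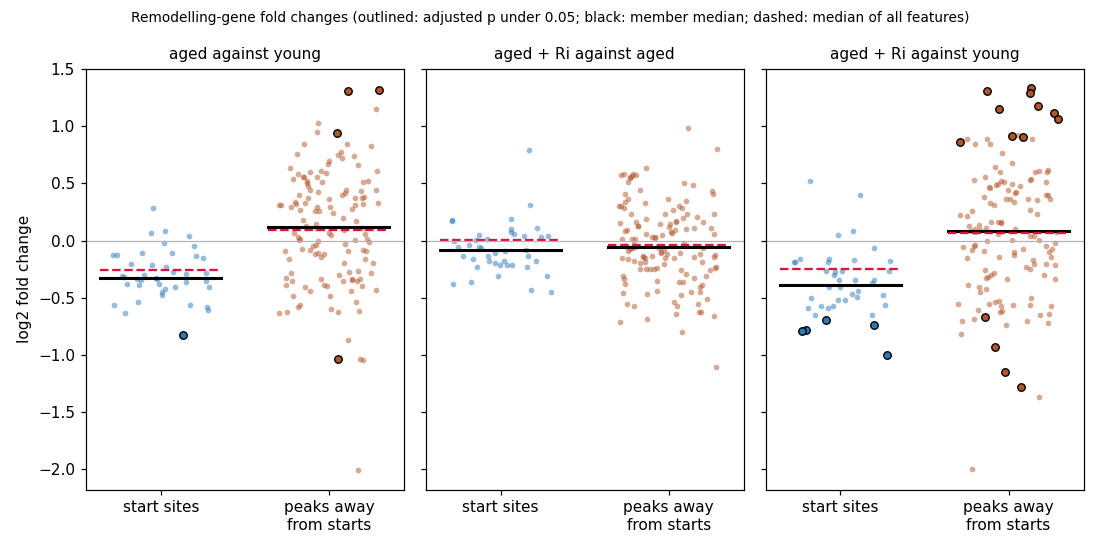
Log2 fold changes of member start sites and of member peaks away from start sites in the 3 comparisons. Black bars are member medians and dashed bars the medians of all features of that kind; start sites lie mostly under 0 against young (medians -0.32 and -0.39), and 0 points are outlined for aged + Ri against aged.

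The comparison of aged Ri with aged cells asked what blocking RhoA does to aged LT-HSC chromatin. Without pairing, no member passed the test: edgeR called 0 of 180 peaks (8 higher and 7 lower at an unadjusted p under 0.05; smallest adjusted p = 0.130) and 0 of 42 start sites (1 higher and 2 lower at an unadjusted p under 0.05; smallest adjusted p = 0.931). DESeq2 also called 0 peaks and 0 start sites, with 4 peaks higher and 4 lower and 1 start site each way at an unadjusted p under 0.05, and gave no adjusted p for 43 peaks. The background was 0.446% of all peaks (0.375% higher and 0.0711% lower) and 0.0522% of all start sites, and at an unadjusted p under 0.05 it was 10.2% and 4.66%. The median log2 change of member start sites was -0.08, against 0.00 for all, and 27 of 42 were under 0 (64.3% against 48.9%).

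Libraries with 1 number in both aged groups were treated as pairs, and the test was repeated with the number as a block. The labels do not state the pairing outright, and the correlations did not favour the same number in every pair. Then 3 of 172 member peaks were called (background 4.42%), 2 higher and 1 lower, and 0 of 40 start sites (background 0.409%; 0 higher and 4 lower at an unadjusted p under 0.05). An Arid1b peak 200.8 kb into the gene (chr17:5195513-5196212) gave 24.9, 29.3, 36.1, 28.7 and 17.4 CPM in aged 1 to 5 and 8.33, 15.3, 18.7, 21.2 and 13.3 CPM in aged Ri 1 to 5. It was lower in 5 of 5 pairs, by 1.74-fold (log2 -0.80 ± 0.19 SE; edgeR with replicate block, adjusted p = 0.00385; without the block, adjusted p = 0.130). In young libraries it gave 34.2, 19.9, 19.9 and 14.5 CPM, overlapping both aged groups.

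A peak 7.5 kb inside the start-site end of Arid3a, an ARID factor (Bright) known from B cells and blood progenitors (chr10:79934177-79934876), gave 12.0, 9.37, 16.9, 7.53 and 19.1 CPM in aged and 13.5, 18.7, 42.6, 21.2 and 21.4 CPM in aged Ri libraries. It was higher in 5 of 5 pairs, by 1.80-fold (log2 0.85 ± 0.21 SE; edgeR with replicate block, adjusted p = 0.00474; without, adjusted p = 0.187), with aged Ri 3 far above the rest and the smallest differences in pairs 1 and 5 (0.16 and 0.15 on log2(CPM + 1)). The other called peak, 240.1 kb into Arid1b (chr17:5234814-5235513), was named after its values were seen. It gave 8.02, 2.34, 8.27, 6.84 and 3.12 CPM in aged and 10.9, 10.2, 19.7, 8.99 and 6.06 CPM in aged Ri libraries, higher in 5 of 5 pairs by 2.00-fold (log2 1.00 ± 0.28 SE; edgeR with replicate block, adjusted p = 0.0197; without, 0.237). The called Arid1b peaks thus moved in opposite directions.

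**Figure D3:**
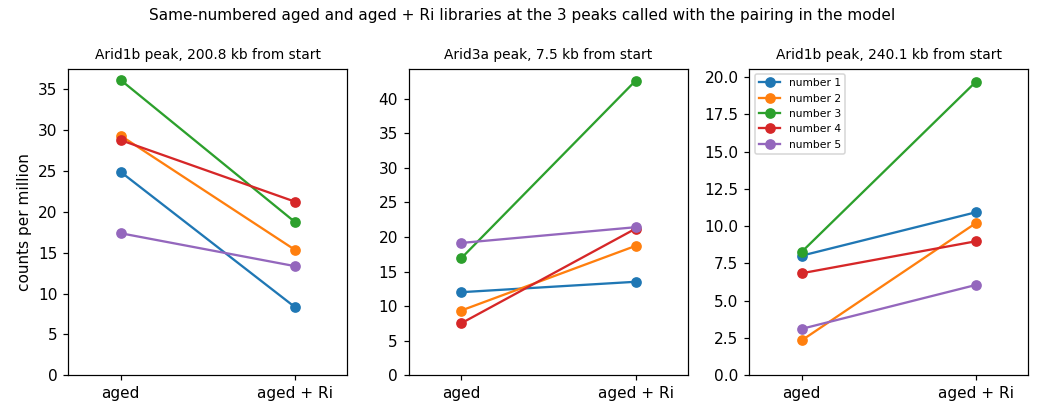
Signal in CPM of same-numbered aged and aged + Ri libraries at the 3 member peaks called with the number as a block. All 5 lines fall at the Arid1b peak 200.8 kb from the start, and all 5 rise at the Arid3a peak and at the Arid1b peak 240.1 kb from the start.

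Other peaks at the ends of the ranking by fold change did not pass in either fit. Higher in aged Ri cells were peaks inside Chd2 (chr7:73517351-73518050; log2 0.58 ± 0.24 SE; edgeR adjusted p = 0.341), Arid1a (chr4:133751407-133752106; log2 0.56 ± 0.27 SE; adjusted p = 0.466) and Chd7 (chr4:8810955-8811654; log2 0.55 ± 0.24 SE; adjusted p = 0.410). Lower were peaks inside Chd6 (chr2:161053700-161054399; log2 -0.63 ± 0.25 SE; adjusted p = 0.338), Smarca2 (chr19:26706536-26707235; log2 -0.57 ± 0.29 SE; adjusted p = 0.521) and Chd9 (chr8:90954908-90955607; log2 -0.55 ± 0.21 SE; adjusted p = 0.302). The Chd6, Smarca2 and Chd9 peaks had mean signals in aged Ri libraries of 9.35, 9.37 and 19.7 CPM. Beside these stood 9.49, 8.22 and 18.9 CPM in young and 14.3, 14.6 and 29.5 CPM in aged libraries, and none of these differences was called. These peaks were picked for their fall from aged to aged Ri, so aged means above aged Ri ones follow from the choice. The higher Chd2 and Chd7 peaks lay above young in aged Ri cells (log2 1.12 and 1.06, both called).

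Among start sites, log2 changes were 0.11 for Smarca2, 0.18 for Brd2 and -0.21 for Brd3, each with an SE of 0.20 or 0.21. These average over batches that differed. On log2(CPM + 1), batches 1, 2 and 3 gave 0.48, -0.05 and -0.42 for Smarca2 and 0.40, 0.31 and -0.56 for Brd2. Brd3 gave -0.13, -0.06 and -0.81. In batch 3 the Smarca4 and Smarca5 start sites were lower as well (-0.72 and -0.34). Smarca4 (0.04 ± 0.27 SE) and Smarca5 (0.01 ± 0.20 SE) changed sign with library sizes set on start sites alone. The lowest were Chd9 (log2 -0.45 ± 0.22 SE) and Ino80d (log2 -0.44 ± 0.20 SE), followed by Arid1b (log2 -0.38 ± 0.21 SE) and Chd4 (log2 -0.36 ± 0.20 SE). The highest was Arid3c (log2 0.79 ± 0.34 SE; edgeR adjusted p = 0.931), at 2.74 to 5.61 CPM in aged and 4.26 to 9.30 CPM in aged Ri libraries.

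Aged Ri and young cells were the third comparison. It shares its aged Ri libraries with the second and its young libraries with the first, so the values are given side by side and are not independent of them. Of 180 member peaks, 19 were called, 10 higher and 9 lower, where the background was 11.5% of all peaks (7.9% higher and 3.56% lower). At an unadjusted p under 0.05 there were 20 higher and 32 lower, where the background was 27.7%. Of 42 start sites, 5 were called, all lower, where the background was 5.68% (1.76% higher and 3.92% lower). At an unadjusted p under 0.05, 0 were higher and 18 lower, against a background of 28.1%. The median start-site change was -0.39, against -0.25 for all start sites, and 38 of 42 were under 0 (90.5% against 75.6%). With library sizes set on start sites alone the medians were -0.13 and 0.00 and 2 start sites were called.

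The 5 called start sites encode subunits of SWI/SNF and INO80 and a CHD motor. Smarcd1 gave 14.6, 23.8, 20.7, 41.7 and 25.9 CPM in aged Ri libraries, against 40.9 to 68.7 CPM in young ones. Only aged Ri 4 overlapped the young range. The fall was 2.00-fold (log2 -1.0 ± 0.22 SE; edgeR adjusted p = 0.00668), was -1.09, -0.90 and -1.05 within the 3 batches on log2(CPM + 1), and missed the threshold without young 1 (adjusted p = 0.0532).

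Smarcc2, the BAF170 scaffold, gave 27.5, 19.2, 35.5 and 40.1 CPM in young and 15.1, 7.66, 11.9, 16.5 and 32.7 CPM in aged Ri libraries. All but aged Ri 5 lay under the lowest young value (log2 -0.79 ± 0.24 SE; edgeR adjusted p = 0.0382). Its peak also covers a tRNA gene and Mir8105 within 1 kb. Brd9, the bromodomain subunit of the non-canonical BAF complex, gave 35.5, 39.2, 42.6 and 46.9 CPM in young and 18.7, 20.4, 19.4, 28.8 and 35.6 CPM in aged Ri libraries. Only aged Ri 5 reached the lowest young value (log2 -0.70 ± 0.20 SE; edgeR adjusted p = 0.0342). The aged libraries ran from 24.4 to 39.6 CPM and overlapped both of these groups. The end of Trip13 lies within 1 kb of this peak.

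Ino80d, an INO80 subunit, gave 43.5, 41.2, 56.8 and 50.3 CPM in young and 17.7, 32.4, 20, 37.8 and 28.3 CPM in aged Ri libraries. The groups did not overlap (log2 -0.78 ± 0.21 SE; edgeR adjusted p = 0.0263). The Chd9 start site, a CHD motor, fell without overlap from 28.4, 22, 42.6 and 24.7 CPM in young to 14.1, 14.5, 13.6, 20.5 and 20.2 CPM in aged Ri libraries (log2 -0.74 ± 0.23 SE; edgeR adjusted p = 0.0445). In all 6 of 42 member start sites were lower without overlap, the others being Smarcb1, Smarcad1, Brd1 and Chd1l, where the background was 4.78%. The count of 5 calls became 0 without young 1, 1 without young 3, aged Ri 1 or aged Ri 3, and 3 without young 2 or aged Ri 5, and it became 15 without aged Ri 2 or aged Ri 4. With the start-site share in the model it was 0, and 12 of 27 named start sites changed sign.

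The peaks at the Smarcd1, Smarcc2, Brd9, Ino80d and Chd9 start sites made up 5 of the 9 lower peaks. A further one covers the upstream end of the Smarcd2 span, with the end of Tcam1 within 1 kb (chr11:106272467-106273166), a strong site of this BAF60B subunit that does not lie at its start by the placement used. It gave 115, 125, 133 and 135 CPM in young and 49.5, 98.8, 73.0, 98.2 and 69.9 CPM in aged Ri libraries, without overlap (log2 -0.67 ± 0.22 SE; edgeR adjusted p = 0.0381). Aged libraries gave 67.4 to 128 CPM. The others lay inside Brd3 (chr2:27504172-27504871; log2 -1.15 ± 0.37 SE; adjusted p = 0.0376), 41.2 kb into Smarca2 (log2 -0.93 ± 0.29 SE; adjusted p = 0.0326) and at the Arid1b peak 300.9 kb from the start (log2 -1.28 ± 0.31 SE; adjusted p = 0.00692), which was lost without young 1 (adjusted p = 0.139).

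The 10 higher peaks lay away from start sites, inside Chd2, Chd7, Arid1b, Arid3a and Arid5b or beyond the end of Smarcd3. Chd2, a CHD motor that loads histone H3.3, had 2. The peak 24 kb inside (chr7:73517351-73518050) gave 7.11, 9.62, 7.10 and 6.29 CPM in young, 7.22, 9.96, 14.7, 15.1 and 8.46 CPM in aged and 15.1, 15.3, 21.3, 19.4 and 12.1 CPM in aged Ri libraries. Aged Ri values lay above all young ones and aged ones overlapped both groups (2.17-fold; log2 1.12 ± 0.27 SE; edgeR adjusted p = 0.00661). This call and that of the Smarcd1 peak were the only ones of the 30 called comparisons of a named peak or start site that held with each single library left out. The one 10.8 kb inside (chr7:73530639-73531338) gave 12.9 to 23.6 CPM in aged Ri libraries (log2 0.90 ± 0.26 SE; adjusted p = 0.0232).

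A peak 120.9 kb inside Chd7, a motor linked to CHARGE syndrome (chr4:8810955-8811654), gave 11.5, 6.18, 9.94 and 10.2 CPM in young, 10.4, 19.3, 15, 8.90 and 13.8 CPM in aged and 16.1, 23.0, 24.9, 18.7 and 17.8 CPM in aged Ri libraries. Again the aged Ri libraries lay above all young ones, and the aged ones overlapped both groups (2.09-fold; log2 1.06 ± 0.28 SE; edgeR adjusted p = 0.0123; without young 2, 0.0699). The Arid3a peak rose to 13.5 to 42.6 CPM from 6.22 to 15.1 CPM in young (log2 1.18 ± 0.30 SE; adjusted p = 0.00825; without aged Ri 3, 0.0690). The peak 9.8 kb from the Smarcd3 start and just past the gene's other end (chr5:24591883-24592582) gave 2.22, 4.12, 7.10 and 3.87 CPM in young, 11.2, 6.44, 9.77, 8.90 and 7.57 CPM in aged and 8.33, 12.8, 11.6, 9.71 and 7.28 CPM in aged Ri libraries. All aged Ri values, and all but 1 aged value, lay above the young ones (aged Ri against young: log2 1.31 ± 0.35 SE; edgeR adjusted p = 0.0137; without young 1, 0.105).

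The remaining higher calls lie at sites already described above. At the Arid1b peak 211.8 kb into the gene aged Ri libraries gave 4.26 to 10.7 CPM (log2 1.34 ± 0.40 SE; edgeR adjusted p = 0.0247), and at the Arid1b peak at 240.1 kb 6.06 to 19.7 CPM against 1.37 to 5.80 CPM in young (log2 1.29 ± 0.40 SE; adjusted p = 0.0332). At Arid5b the peaks 56.6 and 118.7 kb into the gene had log2 changes of 1.15 ± 0.32 (SE; adjusted p = 0.0156) and 0.92 ± 0.30 (SE; adjusted p = 0.0429). The outer Smarcd3 peak had a log2 change of 0.86 ± 0.29 (SE; adjusted p = 0.0473). In batch 3 the Arid5b peak at 56.6 kb went the other way (-0.10 on log2(CPM + 1), against 1.63 and 1.36 in batches 1 and 2). The count of 19 calls became 4 without young 1, 5 without aged Ri 3, 7 without aged Ri 1, 8 without young 2, 11 without young 3 and 29 without aged Ri 4. It was 3 without young 1 and young 3 together and 0 with the start-site share in the model. Other than the Smarcd1 and Chd2 peaks, each call named here for aged Ri against young was lost without at least 1 library, most often young 1: 26 of the 30 called comparisons of a named peak or start site, over both comparisons with young, were lost without it. The 30 list each called start site apart from its single peak, although both rest on the same counts.

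**Figure D4:**
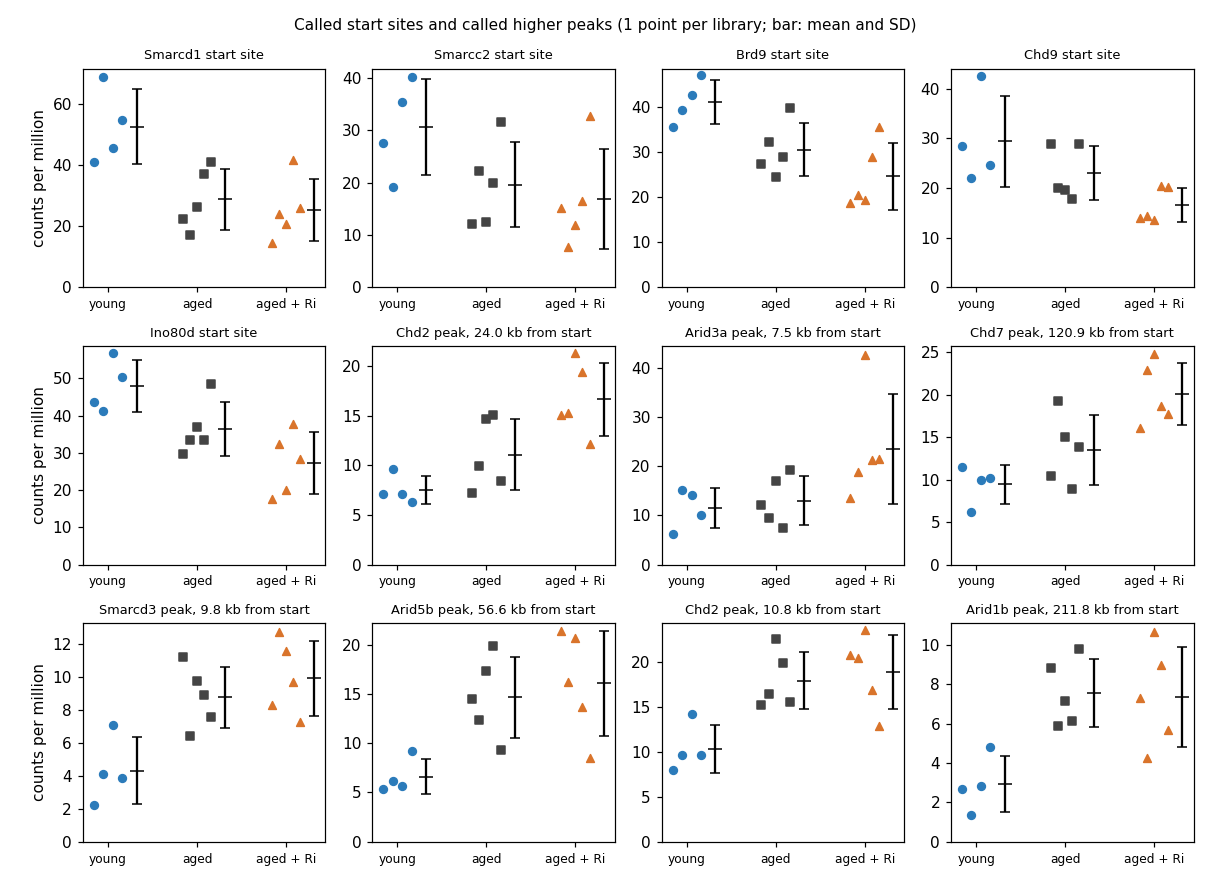
Signal in CPM (axes start at 0) at the 5 called start sites and at 7 called higher peaks in aged + Ri against young, 1 point per library with the mean and SD of each group beside them. Aged + Ri libraries lie mostly below young ones at start sites and above them at the other peaks, with aged libraries often between. The panels were chosen by their call and, for the peaks, by their direction in this comparison, so these positions follow from the choice. Called lower peaks away from start sites (Smarcd2, Brd3, Smarca2 and Arid1b) are not drawn.

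Along the members with the most peaks the changes were not uniform. Of 14 Arid5b peaks 12 were above 0 in both comparisons with young (medians 0.35 and 0.46). Arid1b had medians of 0.12 and -0.05, with higher calls 211.8 and 240.1 kb and a lower call 300.9 kb into the gene. Chd9, with 17 peaks, had medians of 0.17 and 0.13 and its only call at the start site, and Smarca2, with 10, had medians of -0.14 and 0.01 and its only call 41.2 kb into the gene.

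**Figure D5:**
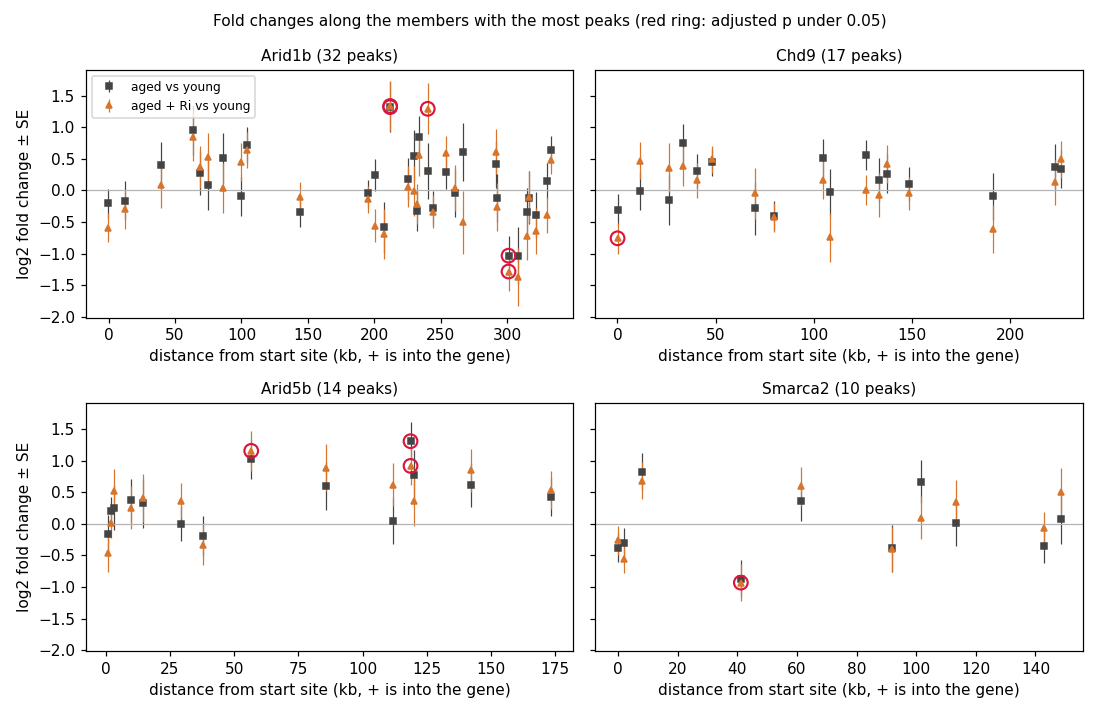
Log2 fold change (± SE) against young by distance from the start site in kb for the 4 members with the most peaks. The Arid5b points lie mostly above 0 except near the start, the 3 ringed Arid1b positions lie past 200 kb on both sides of 0, and Chd9 is ringed only at its start.

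Partner subunits outside the symbol rule (67 genes of SWI/SNF, ISWI, NuRD, INO80/SRCAP/TIP60 and BET or other bromodomain complexes, 66 with a tested start site) were counted in the same way. For aged against young edgeR called 0 (0 higher and 22 lower of 66 at an unadjusted p under 0.05, where the background was 25.0%), with a median log2 change of -0.39 against -0.25 over all start sites. For aged Ri against aged it called 0 (1 higher and 1 lower at an unadjusted p under 0.05, where the background was 4.66%), with a median of -0.04 against 0.00. For aged Ri against young 7 were lower and 0 higher (SWI/SNF 3 of 13, and 1 each of 7 ISWI, 11 NuRD, 21 INO80/SRCAP/TIP60 and 14 BET or other bromodomain genes), where the background was 5.68% (1.76% higher and 3.92% lower), with a median of -0.39 against -0.25. Differences between these classes, or from all start sites, were not tested.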

How the data were processed

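The authors deposited raw counts per consensus peak (700 bp each, mm10) for 14 libraries. The submitters' processing notes name SAMtools 1.14, R 4.2.0 and featureCounts; the aligner, peak caller, duplicate handling and Tn5 shift are not given in the sources used here. Peaks were assigned to RefSeq genes, and counts of peaks within 1 kb of a start (or of the gene end with more counts where no start is given) were summed. edgeR 4.0.16 (R 4.3.3; quasi-likelihood test, TMM, filterByExpr, batch as a term, Benjamini-Hochberg over all peaks or start sites, threshold 0.05) was fitted to all 14 libraries; SE is the log2 change divided by the root of F. CPM uses TMM library sizes. The precision is limited by counts as low as a few per peak and library.

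Named were all called members, the 4 highest and 4 lowest changes per comparison among peaks averaging 20 counts or more, the defining subunits' start sites, and the 3 highest and 3 lowest start-site levels; others are said to have been chosen after their values were seen. The members, lists and tests were chosen with earlier results of these data known. Per the labels' protocol Ri went into 1 of the samples of aged cells, which reads as a split of the same cells, and deviations of same-numbered aged and aged Ri libraries correlated over 25903 peaks (r = 0.3615, 0.1503, 0.6464, 0.2775 and 0.5399; each pair shares a batch, and with batch removed r was -0.2229 to 0.4701). The highest r of aged Ri 1 to 5 with an aged library of another number was 0.3373, 0.0583, 0.018, 0.2828 and 0.0247. For number 4 this was above the r of the same number. Young numbers gave -0.2811 to 0.0634 with aged libraries. No 2 libraries of the same group were duplicates (lowest chi-square per degree of freedom 1.413). Pairs of libraries from different groups were not checked in this way. Alternatives were DESeq2 1.42.0, RLE sizes, no filter, no batch term, a replicate block, trend offsets, the start-site share as a covariate, sizes over start sites alone, other windows, span-only membership and each library left out. Leaving out young 1 and young 3 together was chosen after seeing the data. The scripts were tested on simulated data. Values of 1 member gene and of 1 marker gene are not reported here, although the counts over all members include them.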

Additional observations from a re-analysis of the deposited data

Results flagged for a closer look

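Of 140 groups of 4 or 5 libraries examined, 10 held a library that stood apart from the rest of its group by Dixon's criterion. The groups are of the same 14 libraries and are not independent, so this count cannot be set against a chance rate. Aged 5 stood above the other aged libraries at the start sites of Brd2 (195.9 CPM against 81.0 to 107.4), Brd3 (121.6 against 50.8 to 69.1), Chd1 (81.0 against 37.6 to 41.7) and Chd7 (38.3 against 10.5 to 18.2), and aged Ri 5, of the same batch, stood above at Chd7 (36 against 14.8 to 18.7). Young 4, also of that batch, stood above at the start sites of Arid1b (52.7 CPM against 28.4 to 31.6) and Arid3c (7.74 against 3.55 to 4.26). Young 1 stood below at Chd8 (87.0 CPM against 120.3 to 122.9). Aged Ri 2 stood below at the outer Smarcd3 peak (11.1 CPM against 21.4 to 23.9), and aged Ri 3 above at the Arid3a peak (42.6 CPM against 13.5 to 21.4). All 3 libraries of batch 3 appear among these, and the part of batch in them was not tested beyond its term in the model.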

How the results depend on the processing

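Counts of called members depended strongly on the settings. For peaks in aged against young (5 called), DESeq2 gave 3, no batch term 1, the replicate block 18, the start-site share as covariate 0, and leaving out young 1 and young 3 together 0; single libraries left out gave 0 to 14. For peaks in aged Ri against aged (0 called), the replicate block gave 3 and leaving out young 1 and young 3 gave 1; single libraries left out gave 0 throughout. For peaks in aged Ri against young (19 called), DESeq2 gave 16 (15 of them shared; those lost were the Arid1b peak at 240.1 kb, the Arid5b peak at 118.7 kb, the Brd3 peak and the outer Smarcd3 peak), no batch term gave 11, the replicate block 12, the covariate 0 and leaving out young 1 and young 3 gave 3; single libraries left out gave 4 to 29. For start sites in aged against young (1 called), DESeq2, no batch term, trend offsets, the covariate, sizes over start sites alone and leaving out young 1 and young 3 each gave 0 and the replicate block 20; single libraries left out gave 0 to 4. For start sites in aged Ri against young (5 called), DESeq2 gave 4 (without Chd9), no batch term, the covariate and leaving out young 1 and young 3 each gave 0, the replicate block 12, trend offsets 1 and sizes over start sites alone 2; single libraries left out gave 0 to 15. Start sites in aged Ri against aged gave 0 under every alternative run. The causes were not tested. Young numbers do not pair with the aged ones, so the replicate block in comparisons with young rests on a shared number only. Over all features that block called 4219 of 43244 peaks and 4518 of 12635 start sites in aged against young (3214 of 56235 and 185 of 13399 without it), and 3913 of 48896 peaks and 1649 of 13076 start sites in aged Ri against young (6443 and 761 without it); under no batch term, the covariate and without young 1 and young 3, calls over all peaks and all start sites in both comparisons with young fell as well.

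Over named peaks and start sites, 2336 alternative values kept their side of the threshold, 250 lost the call, 45 gained one and 0 called values reversed. The 2336 include uncalled values whose sign changed, among them the start sites that changed sign with the scaling. All 30 called results lost the call with the start-site share as a covariate. Of these 30, 28 had the same sign within every batch, the exceptions being the Arid1b peak 300.9 kb into the gene and the Arid5b peak 56.6 kb into the gene. The called start sites each hold a single peak that is also among the 30, so these are not 30 separate results.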
